A study of Mus musculus with 3 samples.

Results

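Messenger RNA of the enzymes that write, copy, read and remove DNA methylation was measured in activated regulatory T cells of mouse. The 9 genes are Dnmt1, Uhrf1, Dnmt3a, Dnmt3b, Tet1, Tet2, Tet3, Tdg and Mbd2. They were chosen by symbol through their GENCODE M21 gene identifiers, and all 9 were found among 55536 mouse genes, with 85 of the 141862 annotated mouse transcripts. The RNA came from primary cells labelled as activated regulatory T cells of a male mouse aged 3 weeks. Libraries 1, 2 and 3 are technical replicates 1, 2 and 3 of 1 biological replicate, so there is 1 group and no second condition. The labels give neither the way the cells were activated nor the step at which the libraries parted. Every error below is therefore a spread between 3 libraries of 1 replicate, and a p-value measures only differences between those libraries, which may be technical.

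Vertebrate DNA is methylated mainly on cytosine that stands before guanine (CpG). Dnmt3a and Dnmt3b place new marks, whereas Uhrf1 binds half-methylated DNA behind the replication fork and brings Dnmt1 there to copy them. TET enzymes oxidise methylcytosine, and the glycosylase Tdg cuts out the most oxidised products so that base excision repair restores plain cytosine. Mbd2 binds methylated CpG and carries the repressive NuRD complex. In regulatory T cells, loss of methylation at a conserved enhancer of Foxp3 is a known mark of a stable lineage, and TET enzymes are known to act there.

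The libraries held 30362256, 28419259 and 31959927 reads on genes. All 6 markers of regulatory T cells were detected (a level of 1 or more in every library in TPM, reads scaled for transcript length and library size), with Foxp3 at 134.5, 149.6 and 106.3 TPM, and so were all 5 CD4 T cell markers. All 8 erythroid markers were detected too, and their summed level was 14053 TPM in library 1 against 1181 and 814 TPM in libraries 2 and 3. B cell markers summed to 40.8 to 68.2 TPM (4 of 6 detected), monocyte, macrophage and dendritic markers to 42.8 to 101 TPM (3 of 6), NK markers to 19.3 to 32.5 TPM (2 of 3), CD8 markers to 20.4 to 28.4 TPM (2 of 2) and neutrophil markers to 0.85 to 12.6 TPM (0 of 6). Of the NK markers Ncr1 alone was at 0 in all 3 libraries, and of the neutrophil markers Elane alone. The NK markers Gzma and Klrb1c were at 20.2, 31.4 and 16.4 TPM and at 2.31, 1.09 and 2.91 TPM. In library 1 the neutrophil markers S100a9 and S100a8 were at 6.26 and 3.26 TPM. In bulk RNA, fewer cells of a type and less RNA per cell cannot be told apart.

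All 9 genes were detected in all 3 libraries. Mbd2 stood far above the others at 363 ± 58.0 TPM (SD, n = 3), higher than 98.4% of all annotated protein-coding genes. Below it came Tdg at 63.2 ± 16.5, Dnmt1 at 50.5 ± 15.5, Tet3 at 50.3 ± 6.72, Tet2 at 47.4 ± 10.3 and Dnmt3a at 42.9 ± 4.54 TPM. Uhrf1 (18.8 ± 12.3 TPM), Dnmt3b (9.27 ± 1.15 TPM) and Tet1 (6.91 ± 2.40 TPM) were the lowest 3. A pair of genes was called separated when the log2 ratio of TPM + 1 had the same sign in every library and a mean above 2 SD. Of the 8 pairs of neighbours in this order, that held for Mbd2 over Tdg (log2 ratio 2.52 ± 0.28), and the other 7 neighbours did not differ beyond their spread. With any library left out, 2 to 3 neighbours were separated.

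Much of the TPM of Dnmt3a and the TET genes was assigned to transcripts without a complete coding sequence, and this changed the order. The assignment is an estimate, because several of these transcripts share most of their bases with a coding transcript. By reads, which are not scaled for length, complete coding transcripts held 64.6% to 77.2% of each of these genes. The median over detected protein-coding genes was 91.1% by reads. On complete coding transcripts alone Mbd2 stayed highest (287 TPM), followed by Tdg (51.4), Dnmt1 (40.9), Tet3 (21.7), Uhrf1 (16.4), Dnmt3a (14.4), Tet2 (12), Dnmt3b (7.23) and Tet1 (0.997 TPM). Tet2 fell from the fifth place to the seventh and Uhrf1 rose from the seventh to the fifth. Separated neighbours on this scale were Mbd2 over Tdg (log2 ratio 2.47 ± 0.35), Dnmt1 over Tet3 (0.82 ± 0.36), Tet2 over Dnmt3b (0.64 ± 0.23) and Dnmt3b over Tet1 (2.03 ± 0.36). Uhrf1 over Dnmt3a was not (log2 ratio 0.00 ± 1.13), nor was Dnmt3a over Tet2 (0.26 ± 0.52).

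**Figure D1:**
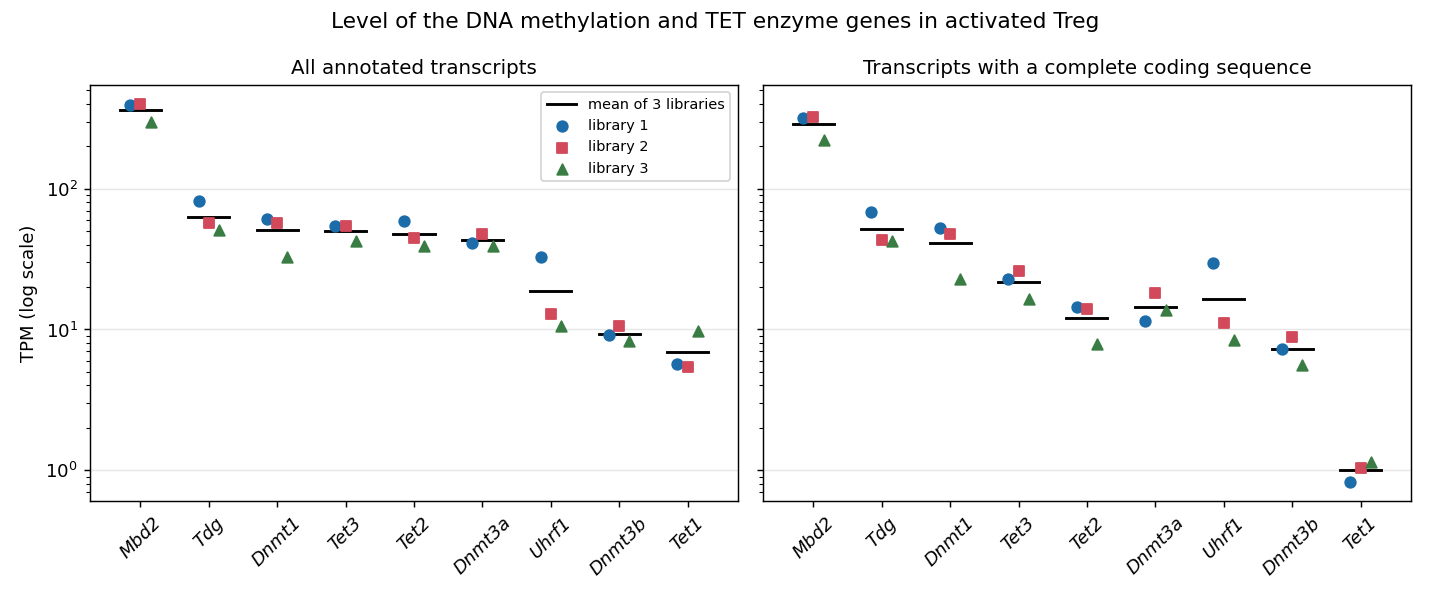
TPM on a log axis for the 9 genes, ordered by mean level over all transcripts, with 1 point per library and a bar at the mean of the 3 libraries. The left panel counts all annotated transcripts and the right panel those with a complete coding sequence. Mbd2 lies highest in both panels, and Tet1 drops from a mean of 6.91 to 0.997 TPM.

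Dnmt1 (chromosome 9, 20907209 to 20959888, mm10) copies methylation after replication. Its level was 61.4, 57.4 and 32.8 TPM in libraries 1, 2 and 3. Libraries 1 and 2 were close and library 3 was low. Scaled for library size, the highest to lowest ratio of CPM (reads scaled for library size alone) was 2.06, and without library 3 it was 1.09. Uhrf1 (chromosome 17, 56303321 to 56323486) is the partner that finds half-methylated sites. Its level was 32.9, 12.8 and 10.7 TPM. Library 1 was high and the other two were close. The highest to lowest CPM ratio was 3.18 and dropped to 1.2 without library 1. Dnmt1 exceeded Uhrf1 in every library, by 1.5 ± 0.60 on the log2 scale, a separation that was lost without library 3 (1.48 ± 0.85).

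Dnmt1 carried a pair of protein forms. The 1620-residue form, the full somatic enzyme, was on transcript Dnmt1-201 at 27.34, 32.57 and 15.01 TPM. A 1501-residue form, which starts at a later methionine, was on Dnmt1-202 and Dnmt1-203 at 24.96, 15.01 and 7.69 TPM together. The long form took 62.3 ± 8.75% of complete coding TPM, with 52.3% in library 1 and 68.5% and 66.1% in libraries 2 and 3. Dnmt1-201 and Dnmt1-202 differ by their first exons, of 272 and 156 bases, and by a 3-base segment (20940552 to 20940554). The split between the forms therefore rests on reads over these short stretches. The first coding exon of Dnmt1-201 is shown because it marks the long form, with its start codon first.

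Dnmt1-201 first coding exon (chr9:20952708-20952787, minus strand, mm10): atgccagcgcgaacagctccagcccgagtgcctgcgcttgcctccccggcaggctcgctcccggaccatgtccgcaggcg

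The 250 bases before the starts of Dnmt1-201 and Dnmt1-202 are shown, with every CpG in capitals, because these transcripts carried most of the RNA of the long and the short form. They were read from RefSeq promoters on GRCm38.p6, and the starts of 8 of the 9 genes were examined there. The start of Dnmt1-201 had 7 CpG and that of Dnmt1-202 had 2, against a median of 6 over 32851 promoters. The start of Dnmt1-203, the minor transcript of the short form at 0.76, 0.86 and 0.95 TPM, had 26 CpG, more than 90.4% of promoters. That stretch (20952624 to 20952873) overlaps the first exon of Dnmt1-201 (20952708 to 20952979), so it lies just downstream of the Dnmt1-201 start.

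Before the Dnmt1-201 start (chr9:20952980-20953229, minus strand): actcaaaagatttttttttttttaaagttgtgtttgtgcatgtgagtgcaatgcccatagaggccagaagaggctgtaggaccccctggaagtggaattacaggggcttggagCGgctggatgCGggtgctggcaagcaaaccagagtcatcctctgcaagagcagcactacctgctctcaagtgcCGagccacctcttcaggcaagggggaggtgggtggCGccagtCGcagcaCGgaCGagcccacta
Before the Dnmt1-202 start (chr9:20959889-20960138, minus strand): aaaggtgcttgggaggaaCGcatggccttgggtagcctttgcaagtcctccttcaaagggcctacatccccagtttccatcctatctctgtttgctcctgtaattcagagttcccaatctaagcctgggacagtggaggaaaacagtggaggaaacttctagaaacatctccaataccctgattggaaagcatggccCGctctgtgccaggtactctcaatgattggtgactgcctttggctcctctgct

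Uhrf1 RNA lay mainly on transcripts for a 782-residue protein, at 24.0, 11.1 and 8.40 TPM. This form took 93.6 ± 11.1% of complete coding TPM by the main estimate and 75.5 ± 3.17% by the deposited posterior mean, so its share depends on the estimate. The upstream sequence of the Uhrf1-202 start held 30 CpG, more than 94.1% of promoters, and 1 match to an E2F motif. Uhrf1-202 itself was at 0 TPM in all 3 libraries, and the sequence is shown because Uhrf1-204, the main transcript at 17.7, 7.44 and 3.45 TPM, starts at 56304348, just downstream of the Uhrf1-202 start at 56304313. The other Uhrf1 start in RefSeq, at 56303337, had 10 CpG and no match. Uhrf1-201, at 6.32, 3.63 and 4.95 TPM, starts near it, at 56303321, and was above Uhrf1-204 in library 3. E2F factors switch on S phase genes. The letters searched were TTTCCCGC, TTTGGCGC, TTTCGCGC and TTTGCCGC on both strands, and 1.86% of promoters of this length held any of them. Among the starts of the 8 genes examined, that of Dnmt1-203 also held 1 match. The Uhrf1 match lies 177 bases before the start, and it is shown in capitals. It is a match of letters and not a measured site.

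Before the Uhrf1-202 start (chr17:56304063-56304312, plus strand, GRCm38.p6): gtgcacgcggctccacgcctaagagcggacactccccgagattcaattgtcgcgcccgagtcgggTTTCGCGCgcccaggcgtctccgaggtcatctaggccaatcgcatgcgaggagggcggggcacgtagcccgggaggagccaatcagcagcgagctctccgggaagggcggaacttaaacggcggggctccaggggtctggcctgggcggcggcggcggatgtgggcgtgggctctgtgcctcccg

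Dnmt3a (chromosome 12, 3806007 to 3914443), a de novo methyltransferase, was the steadiest of the 9 genes. Its level was 41.2, 48.1 and 39.5 TPM, and its highest to lowest CPM ratio was 1.2. Dnmt3b (chromosome 2, 153649450 to 153687730), the second de novo enzyme, was at 9.09, 10.5 and 8.22 TPM. Library 2 was the highest for both, and Dnmt3a was lowest in library 3 by TPM but in library 1 by CPM. Dnmt3a exceeded Dnmt3b by 2.10 ± 0.04 on the log2 scale, the tightest of the 7 ratios examined. On complete coding transcripts the difference shrank to 0.90 ± 0.30 and still exceeded its spread. Dnmt1 and Dnmt3a did not differ beyond their spread (0.19 ± 0.42).

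The smaller difference on coding transcripts came with a low coding share of Dnmt3a. Complete coding transcripts took 33.3 ± 5.04% of Dnmt3a TPM, and the retained-intron transcript Dnmt3a-202 alone took 29.5 ± 1.80%. Of the 1944 bases of Dnmt3a-202, 1337 lie outside the coding transcript Dnmt3a-201. The partial coding transcript Dnmt3a-206 took 18.7 ± 3.31%, and only 76 of its 827 bases lie outside Dnmt3a-201. By reads the coding share was 70.4 ± 6.19%, since the coding transcripts are longer. Within the coding part, the 908-residue form was at 6.99, 9.76 and 7.66 TPM and the 689-residue form, known as Dnmt3a2 and started from an internal promoter, was at 4.43, 8.28 and 6.02 TPM. The long form took 57.1 ± 3.68% and was the larger in every library. Part of this split rests on noncoding sequence, since Dnmt3a-201 has 3489 noncoding bases (3907787 to 3911275) that Dnmt3a-203 lacks. By the posterior mean the 689-residue form was at 4.44, 4.22 and 4.36 TPM, and the long form took 63.0 ± 4.32%. The high value of the 689-residue form in library 2 therefore depends on the estimate.

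Dnmt3b RNA was split among forms that differ by short coding exons. The 776-residue form was at 5.58, 3.69 and 3.88 TPM, the 860-residue form at 1.73, 2.54 and 1.11 TPM and the 839-residue form at 0, 2.59 and 0.57 TPM. The 776-residue form was the largest in each library, with 76.3%, 41.8% and 69.8% of complete coding TPM. Its exon content is that of Dnmt3b3, which is known as a catalytically inactive form. By the posterior mean its share was 46.5 ± 13.1%, and the 859- and 796-residue forms, at 0 TPM by the main estimate, took 5.61% and 8.47%. Gene reads behind these splits were only 553, 623 and 519. The 3 exons missing from the 776-residue form are shown because the calls turn on them, and the 839-residue form lacks the first of them.

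Dnmt3b 60-base exon (chr2:153670849-153670908, plus strand, mm10): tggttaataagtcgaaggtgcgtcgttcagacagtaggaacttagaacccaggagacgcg
Dnmt3b 70-base exon (chr2:153683608-153683677, plus strand, mm10): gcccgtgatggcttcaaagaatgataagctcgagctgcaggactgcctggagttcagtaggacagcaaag
Dnmt3b 119-base exon (chr2:153684359-153684477, plus strand, mm10): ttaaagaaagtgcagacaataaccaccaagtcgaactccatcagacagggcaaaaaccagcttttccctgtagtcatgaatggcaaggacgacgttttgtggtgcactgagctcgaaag

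The TET family was led by Tet3 and Tet2. Tet3 (chromosome 6, 83362373 to 83459084) was at 54.3, 54.0 and 42.6 TPM, with library 3 low. Tet2 (chromosome 3, 133463679 to 133545139) was at 58.8, 44.5 and 38.9 TPM, with library 1 high, whereas by CPM (111, 103 and 72.5) libraries 1 and 2 were close and library 3 was low. The pair did not differ beyond its spread over all transcripts (log2 ratio of Tet2 to Tet3 -0.10 ± 0.20). On complete coding transcripts Tet2 was lower than Tet3 in every library (-0.82 ± 0.17). Tet1 (chromosome 10, 62804570 to 62908996) was at 5.67, 5.38 and 9.68 TPM, and library 3 was high. Tet2 exceeded Tet1 by 2.63 ± 0.66 and Tet3 exceeded it by 2.73 ± 0.61.

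All 3 TET genes had low coding shares. Complete coding transcripts took 15.1 ± 3.71% of Tet1 TPM, 25.3 ± 5.65% of Tet2 and 42.8 ± 4.74% of Tet3. The main transcript of Tet1 was Tet1-202, a processed transcript of 1505 bases, with 68.9 ± 3.35% of its TPM. Tet2-205, a fragment of 423 bases annotated with a partial coding sequence, took 32.9 ± 3.75% of Tet2, and the processed transcript Tet3-201 took 40.1 ± 3.70% of Tet3. These shares are estimates that rest on few distinguishing bases. Outside the coding transcript lie 169 of 1505 bases of Tet1-202 (against Tet1-206) and 95 of 423 of Tet2-205 (against Tet2-201). For Tet3-201, 182 of 2523 bases lie outside Tet3-202. By reads, the complete coding transcripts held 64.6% of Tet1, 73.2% of Tet2 and 77.2% of Tet3. Over 10601 detected protein-coding genes the median coding share of TPM was 80.03%, and 22.5% of genes were under 50%. Over the 6067 of them with 5 to 18 annotated transcripts, the range of the 9 genes, the median was 68.2% and 29.8% were under 50%. By reads these medians were 91.1% and 83.7%, above the read shares of the TET genes. Among the 9 genes, 4 were under 50%, namely Dnmt3a and the TET genes.

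**Figure D2:**
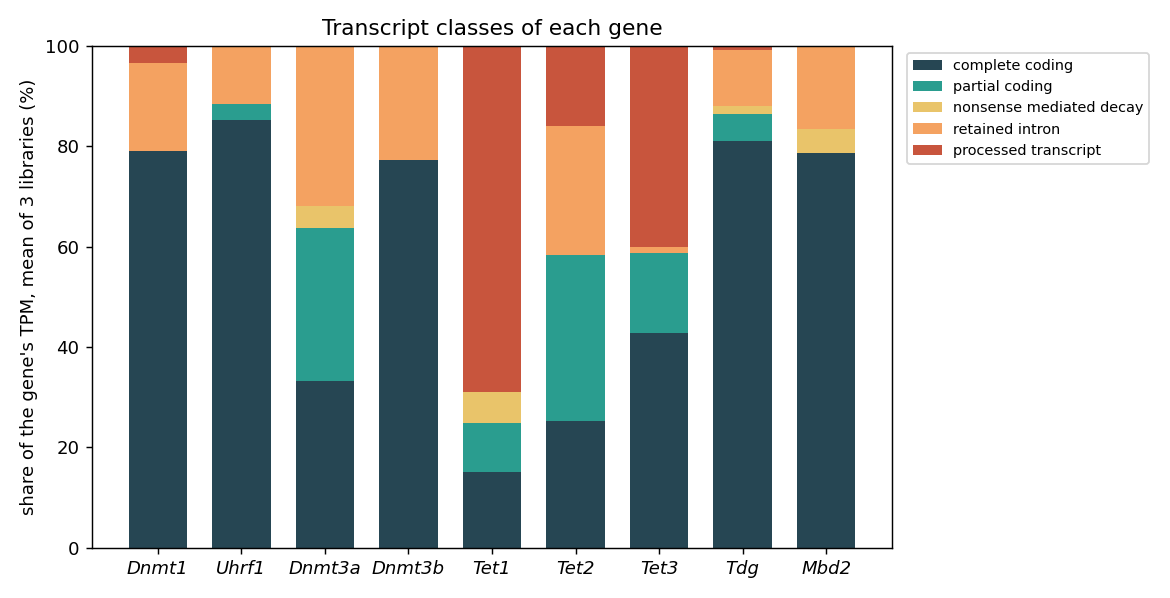
Share of each gene's TPM by annotated transcript class, as the mean of 3 libraries in percent, stacked to 100. Complete coding transcripts took 77.3% to 85.2% in Dnmt1, Uhrf1, Dnmt3b, Tdg and Mbd2, and 15.1% to 42.8% in Dnmt3a and the TET genes.

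Tet3 was carried by 2 complete forms. The 1668-residue form on Tet3-202 was at 14.0, 14.7 and 10.4 TPM, and the 1803-residue form on Tet3-203 was at 8.76, 11.2 and 6.03 TPM. The shorter form took 60.5 ± 3.44% and was the larger in every library. This split is an estimate that rests partly on noncoding sequence. Tet3-202 has a stretch of 5669 noncoding bases (83362373 to 83368041) that the annotated Tet3-203 lacks. Only 303 coding bases mark the longer form. The longer one adds an amino end with a CXXC zinc finger, a domain that binds CpG in DNA. The first 300 bases of its first coding exon are shown with its 8 in-frame cysteine codons in capitals, since cysteines hold the zinc in such a finger.

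Tet3-203, first 300 bases of the first coding exon (chr6:83454753-83455052, minus strand, mm10): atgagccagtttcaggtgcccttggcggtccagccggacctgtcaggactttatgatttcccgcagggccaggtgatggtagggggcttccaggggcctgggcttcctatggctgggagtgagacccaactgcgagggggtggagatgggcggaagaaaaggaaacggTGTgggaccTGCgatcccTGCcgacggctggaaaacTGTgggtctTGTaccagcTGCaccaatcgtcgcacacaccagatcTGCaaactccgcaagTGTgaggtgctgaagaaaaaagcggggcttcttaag

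Tet2 lacks a CXXC domain of its own, and the neighbouring gene Cxxc4 codes for one. Cxxc4 was at 0.04, 0 and 0.05 TPM, under the detection level of 1 TPM. Nearly all complete coding Tet2 RNA was on Tet2-201, for 1912 residues, at 14.3, 13.9 and 7.84 TPM. The 250 bases before its start held 51 CpG, more than 99.9% of promoters. The 2039-residue form of Tet1 was at 0.60, 0.65 and 0.97 TPM and the 2007-residue form at 0.22, 0.38 and 0.17 TPM.

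**Figure D3:**
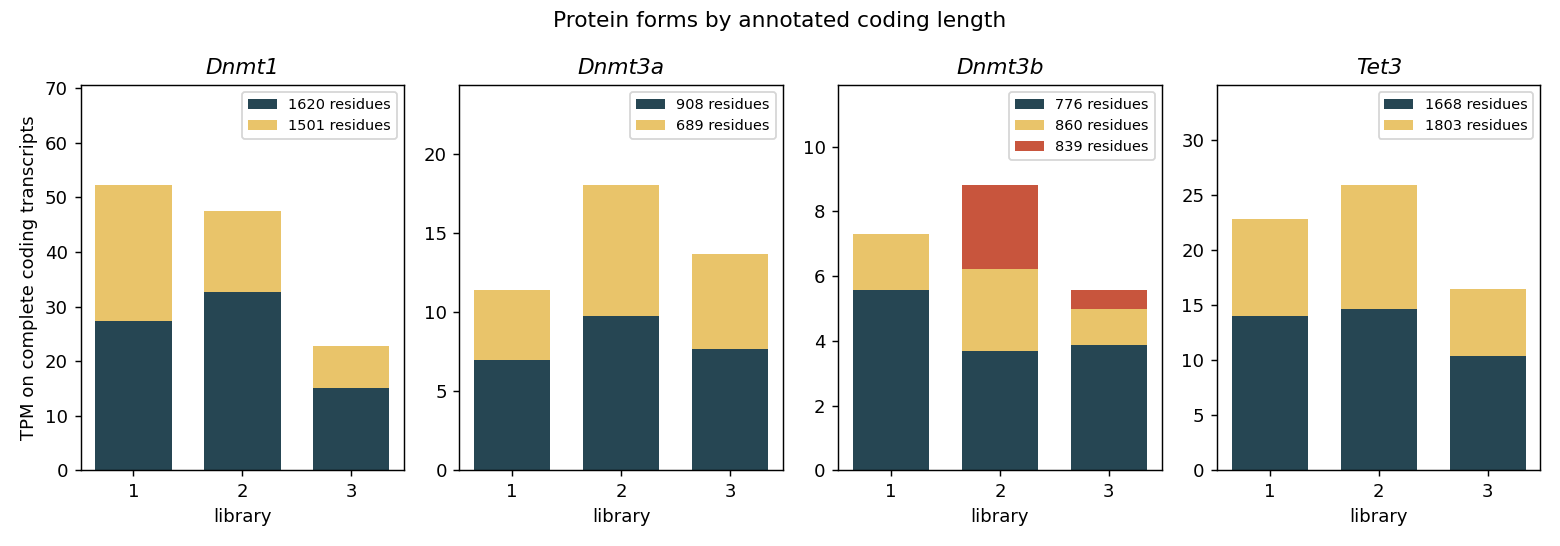
TPM on complete coding transcripts in each library for Dnmt1, Dnmt3a, Dnmt3b and Tet3, stacked by the length of the annotated protein. The 839-residue form of Dnmt3b has 2.59 TPM in library 2 and 0 in library 1, whereas the forms of Dnmt3a and Tet3 keep the same order in each library.

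Tdg (chromosome 10, 82629828 to 82650799) was at 81.9, 56.8 and 50.9 TPM. Library 1 was high and the other two were close. The 397-residue form on Tdg-201 was at 58.6, 41.3 and 35.7 TPM and took 88.3 ± 5.84% of complete coding TPM. A 421-residue form on Tdg-208 was at 9.52, 2.22 and 6.86 TPM. The level of Tdg is uncertain, because 1918 of the 2910 50-base windows of Tdg-201 (65.9%) also occur in transcripts of 4 processed pseudogenes. These were given few reads. Tdg-ps had 8.50, 0 and 20.5, Gm9855 had 20.0, 8.15 and 18.4, and Gm5597 and AC122846.1 had at most 18.4 in any library.

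A second, smaller gene table deposited for each library gave another view of this. It held 144, 90 and 108 reads for Tdg, or 3.54% to 3.70% of the 4062, 2430 and 2975 reads in the larger table. The share in that table falls with reads per exonic base over protein-coding genes with at least 500 reads. Among the 1740 of these with 0.5 to 1 reads per base, as Tdg has, the median share was 41.6%, and 2.47% of them were below Tdg. Dnmt1, in the same range, kept 69.6% to 76.5%, and 96.8% of the genes in that range were below Dnmt1. Mbd2 kept 18.8% to 21.3%, near the median of 19.4% for the 426 genes with 2 to 4 reads per base, and none of its windows occurred elsewhere. Shared windows took 20.0% of Uhrf1-204, with pseudogenes Gm5648 and Gm15953, and 8.04% of Dnmt3b-206, with Dnmt3c. How the smaller table treated reads with several matches is not given in the sources used here, and its part in the low Tdg value was not tested.

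**Figure D4:**
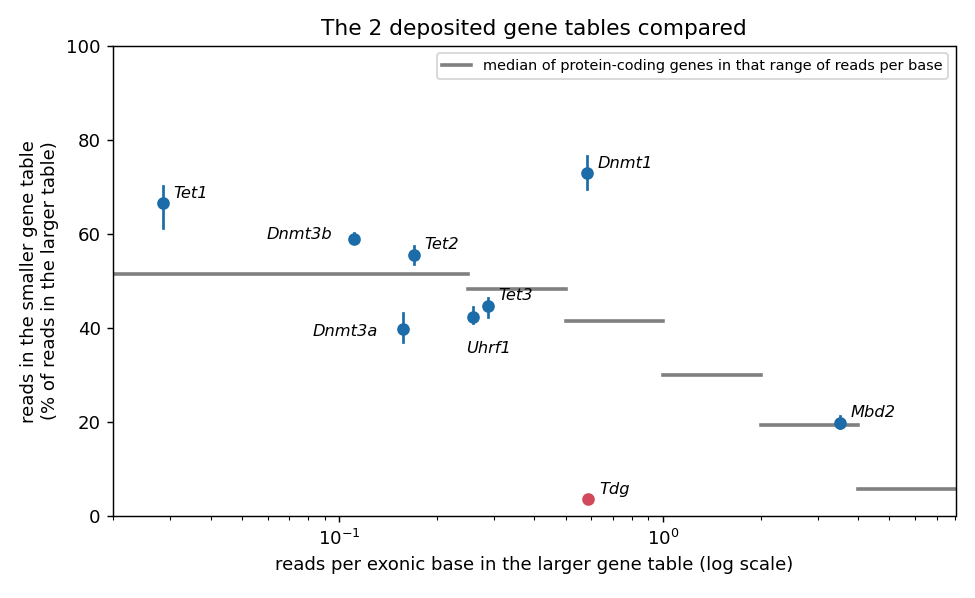
Reads in the smaller table as a percentage of those in the larger table, against reads per exonic base on a log axis. Points are means of 3 libraries, vertical lines run from the lowest to the highest library, and grey bars are medians of protein-coding genes with at least 500 reads. Tdg, in red, lies at 3.63% under a bar at 41.6%, and Mbd2 lies near its bar.

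Mbd2 (chromosome 18, 70568189 to 70626131), the reader, was at 392, 401 and 296 TPM. Library 3 was low. Mbd2-201, for the 414-residue protein, took 99.7% of complete coding TPM, and the 249-residue form was at 1.08, 0.64 and 0.64 TPM. Mbd3, the sister subunit that replaces Mbd2 in NuRD, was at 132, 135 and 124 TPM, lower than Mbd2 in each library.

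Differences between libraries were tested with a chi-square test of read counts against library size (2 degrees of freedom, Benjamini-Hochberg adjustment over all 17190 genes tested). All 9 genes passed, with adjusted p from 4.38e-238 for Dnmt1 to 2.01e-08 for Dnmt3b. This count is close to the background, since 79.8% of all genes tested passed, and 89% of those averaging at least 100 reads. Dnmt1 and Uhrf1 were the 2 of 9 that differed by 2-fold or more, as did 11% of genes with that many reads. By CPM 6 of 9 were lowest in library 3, against 47.3% of genes, and by TPM 8 of 9, against 53.6%. By CPM 4 of 9 were highest in library 1, against 34.3%. Single libraries carried some calls. Without library 1 the adjusted p of Tdg was 0.400, and without library 3 those of Tet1 and Mbd2 were 0.132 and 0.0573.

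Library differences were also set against transcript length. Over the 17190 genes tested, the log2 difference of library 3 from the other two had a Spearman correlation with effective length of -0.27 across genes, which are not independent replicates. With a length trend removed, the difference in library 3 moved from -0.97 to -0.80 for Dnmt1 and from -0.35 to -0.15 for Tet3, and 6 of 9 were still lowest there. The coding share of TPM was lowest in library 3 for 7 of 9 genes, against 38.1% of the 9151 detected protein-coding genes whose share varied between libraries. Whether transcript length had a part in this was not tested.

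**Figure D5:**
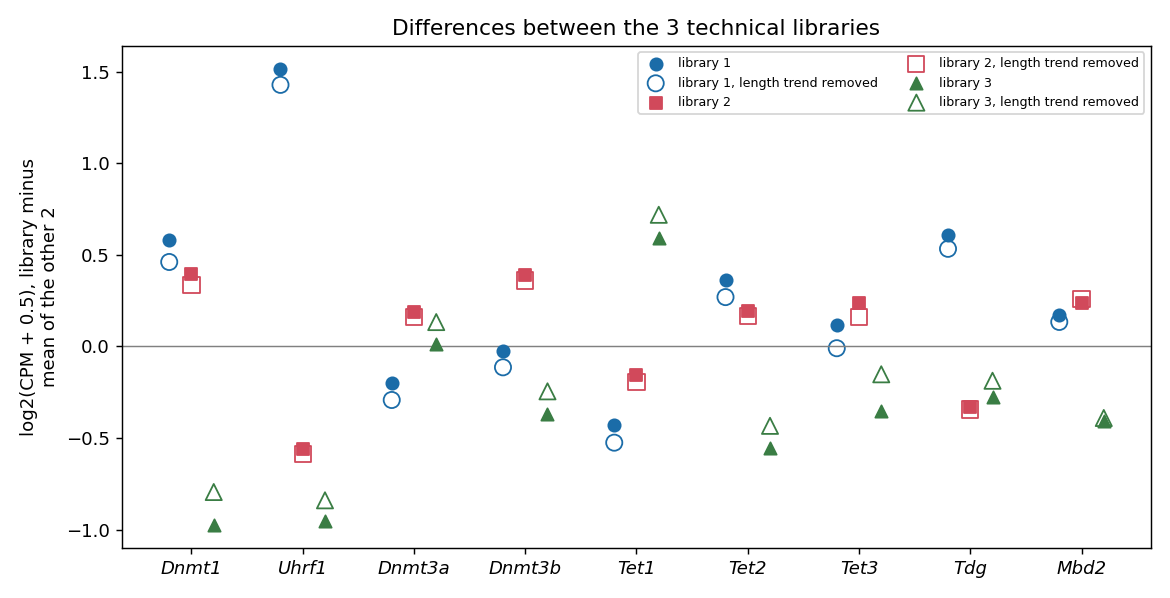
Log2 difference in CPM + 0.5 between each library and the mean of the other two for the 9 genes. Filled points are values as measured and open points have the length trend removed. Uhrf1 in library 1 lies at 1.52, Dnmt1 in library 3 at -0.97, and Tet1 is the 1 gene that is highest in library 3.

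Proliferation genes were high in library 1, as Uhrf1 was, but their median did not follow Uhrf1 in library 3. All 25 of a list of 25 passed the test, against 79.8% of all genes tested. In library 1, 24 of 25 were highest, against 34.3% of genes. Their median log2 difference there was 0.76, against 1.52 for Uhrf1 and 0.58 for Dnmt1. In library 2 their median was -0.64 and 21 of 25 were lowest there, against 23.4% of genes, whereas Uhrf1 was at -0.56 and Dnmt1 at 0.40. In library 3 their median was -0.07, whereas Uhrf1 was at -0.95 and Dnmt1 at -0.97, the lowest values of both. Of the 25, 4 were lowest in library 3, as Uhrf1 was, against 47.3% of genes. The erythroid markers were also highest in library 1, at the levels given above. The part of either in the levels of Uhrf1, Dnmt1 and Tdg was not tested.

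Partners of the 9 genes came from 6 lists with 86 genes, of which 78 had enough reads. Of these, 69 passed the chi-square test (88.5%), against 79.8% of all genes tested and 89% of those with 100 or more reads. The median highest to lowest CPM ratio of the partners was 1.33, against 1.34 for genes with 100 or more reads. Partner genes at 2-fold or more with that many reads were Lig1 (2.33), the ligase that joins new DNA, Pclaf (2.71), which binds the replication clamp, the repair glycosylase Neil3 (3.73) and the amino acid carrier Slc43a2 (2.66). Lig1, Pclaf and Neil3 were highest in library 1 and lowest in library 2.

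Of 10 other readers of methylation 6 passed, against 79.8% of all genes tested. The highest were Mbd3 (130 ± 5.54 TPM), Mbd1 (65.7 ± 15.3) and the Uhrf1 relative Uhrf2 (60.7 ± 8.10). Uhrf2 was above Uhrf1 in each library. Zbtb4 (5.08 ± 0.75 TPM) and Zbtb33 (1.42 ± 0.19), zinc finger readers, were the lowest. Among partners of the methyltransferases 14 of 15 tested passed. The deacetylase Hdac1 (237.5 ± 22.9 TPM), the replication clamp Pcna (159 ± 19.7) and the corepressor Trim28 (131 ± 13.8) led this list. Dnmt3l, the cofactor of de novo methylation in germ cells, was at 0, 0 and 0.16 TPM, and Zfp57, which guards imprints, had no reads in any library.

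In the list of demethylation and base excision repair 16 of 18 passed, against 79.8% of all genes tested. The cytidine deaminase Apobec3 was highest at 422, 505 and 331 TPM, followed by the endonuclease Apex1 (62.1 ± 8.58) and Parp1 (48.2 ± 6.87). The glycosylase Neil2 was at 1.13, 2.14 and 0.54 TPM. Regulators and cofactor suppliers of TET had 14 of 15 passing. Ogt, which attaches GlcNAc and binds TET proteins, was at 186 ± 32.8 TPM, Hif1a at 178 ± 42.5 and Idh3g, of the enzyme complex that makes the TET cofactor ketoglutarate, at 169 ± 17.8. Wt1, which binds Tet2 in other cells, was at 0, 0.06 and 0 TPM.

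Methyl donor supply had 14 of 14 passing, against 79.8% of all genes tested. Mat2a, the enzyme that makes S-adenosylmethionine, was at 207, 285 and 280 TPM, its regulator Mat2b at 207 ± 24.8 TPM and Ahcyl2 at 161 ± 25.9. The liver enzymes Mat1a and Bhmt were at 0.067 and 0.13 TPM on average. Of 6 proteins that bind unmethylated CpG through a CXXC finger 5 passed, with Cxxc1 at 93.8 ± 17.2, Kmt2a at 64.1 ± 6.18 and Kdm2a at 57.7 ± 13.8 TPM, and with Kmt2b (13.4 ± 1.15) and Fbxl19 (1.33 ± 0.43) lowest.

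Likeness of pattern was measured as the largest gap, over the 3 libraries, between a pair of genes in centred log2 CPM, among 10162 protein-coding genes. With 3 libraries many genes share a pattern. Uhrf1 had 4 genes within a gap of 0.1, and the nearest were Smpdl3b, Plk1 and Ptger3, at 0.04 to 0.07. Dnmt1 had 138, led by Srcap, Ttc7 and Irf5, Tdg had 100, led by Elac1, Bpgm and Ly86, and Tet1 had 160, led by Uqcc2, Maged2 and Gla. Counts were 499 for Tet2 (Ddx28, Hif1a, Pex11g), 524 for Dnmt3b (Fam199x, Cited2, Stradb), 848 for Mbd2 (Npepl1, Pcf11, Add1), 875 for Dnmt3a (Caprin1, Spop, Creb1) and 941 for Tet3 (Dgkz, Zc3hav1l, Ankrd11).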

How the data were processed

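Polyadenylated RNA of 1 sample group was sequenced as 3 technical libraries. Per the deposited library notes, assembly mm10 served throughout, with GENCODE M21 behind the transcript table and the larger of 2 gene tables and M4 behind the smaller. No aligner, counter or strandedness was named in the sources used here, so reads from overlapping antisense genes cannot be told apart. Expected counts as deposited by the authors are estimated reads per gene or transcript, not normalized. TPM and FPKM as deposited were scaled by the authors for length and depth, and the percent columns deposited by the authors give each transcript's share of its gene. The whole-number counts in the smaller table were deposited by the authors with no filter named, and were used as an alternative.

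From these, expected counts were rounded and tested against TMM effective library sizes (edgeR 4.0.16, R 4.3.3) wherever a gene averaged at least 10 reads, at an adjusted p of 0.05. No quasi-likelihood contrast could be fitted with 1 group. Alternatives were size factors of DESeq2 1.42.0, plain totals, other filters, pseudocounts, posterior means, the smaller table and each library left out. Python 3.11.15 was used for the rest. The chi-square test was also run on simulated counts with counting noise only. That run cannot show how the test behaves with the larger spread of these libraries. Complete coding transcripts are protein-coding ones with an annotated start and end. Named partners are the 3 highest and 2 lowest of each list, and any at 2-fold or more with at least 100 reads on average. A gene that this rule names is not reported here, though counts include it. A further 2 comparisons, on complete coding transcripts only, and the reading of the smaller table by reads per base were added after seeing the data. The genes and lists were chosen with earlier results of these data known. Spike-in and transfer RNA entries, 0.166% to 0.229% of reads, were left out.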

Additional observations from a re-analysis of the deposited data

How the results depend on the processing

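All 9 genes passed the chi-square test under 5 alternatives of scaling, filter and estimate, against 47.8% to 87.1% of all genes tested. By the smaller gene table, 8 of 9 passed (Dnmt3a did not, adjusted p 0.288), against 64.9% of genes tested there. Leaving out a library gave 7 to 9 of 9, against 54.3% to 66.1% of genes. Partner calls were 69 of 78 (79.8% of all genes), with a lowest count of 55 of 77 without library 3 (54.3%) and a highest of 73 of 85 with no filter on low counts (47.8%). The number of separated neighbours was 1 of 8 in the report, 2 to 3 without 1 library, 5 in the smaller table per exonic kilobase and 4 on complete coding transcripts. Genes with 50% or more of their TPM on 1 transcript were 3 of 9, against 71.2% of detected protein-coding genes and 56.6% of those with 5 to 18 transcripts, 5 on protein-coding transcripts only and 3 to 5 with a library left out.

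Several signs changed, and the cause was not tested. With a library left out, the log2 ratio of Tet2 to Dnmt3a ranged from -0.065 (without library 1) to 0.24, that of Dnmt1 to Tet3 from -0.14 to 0.13 (without library 3) and that of Dnmt1 to Dnmt3a from -0.0042 (without library 1) to 0.41. In the smaller table, per kilobase of all annotated exons, Tdg to Dnmt1 was -4.30, Dnmt1 to Tet3 1.67 and Dnmt3a to Uhrf1 -0.63. That divisor differs from the effective length behind TPM, so these values are not on the scale of the ratios above. Before division, Dnmt3a had 1016, 1031 and 1062 reads there, more than the 799, 304 and 282 of Uhrf1. Exonic bases were 16642 for Dnmt3a and 4259 for Uhrf1. On complete coding transcripts Dnmt1 to Tet3 was 0.82, Tet2 to Dnmt3a -0.26 and Dnmt3a to Uhrf1 -0.00099. The library 3 difference of Dnmt3a was -0.17 by log2(TPM + 1) and -0.032 in the smaller table. The library 2 difference of Tet2 was -0.10 by log2(TPM + 1), and the library 1 difference of Tet3 was -0.010 with the length trend removed. No paired analysis was possible because all libraries form 1 group. Depth limits the forms of Dnmt3b and Tet1, whose genes had means of 565 and 439 reads.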
